A study of Mus musculus with 40 samples.

Results

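Messenger RNA levels of 8 genes that control mitochondrial gene expression were followed in extensor digitorum longus (EDL) muscle of the mouse. The genes were the coactivators Ppargc1a and Ppargc1b, the nuclear receptors Esrra, Esrrb and Esrrg, the muscle regulator Perm1, the transcription factor Nrf1 and the mitochondrial DNA-binding protein Tfam. They were picked by name from the 22844 genes in the deposited tables, and all 8 passed the filter on low counts that left 13543 genes for testing. Poly(A) RNA from whole EDL, a fast hindlimb muscle, was sequenced from 40 mice in 8 groups of 5, with 1 library per mouse. Mice were 3 or 9 months (3m, 9m) old and carried floxed Tsc1 alleles, with the strain given as Tsc1tm1Djk/J. Littermates without Cre (Tsc1fl/fl) are called CON, and mice that lost Tsc1 in skeletal muscle fibers are called TSCmKO. Each genotype and age received intraperitoneal vehicle or rapamycin (RM) for 3 days, which gave the groups 3mCON, 3mCON+RM, 3mTSCmKO, 3mTSCmKO+RM, 9mCON, 9mCON+RM, 9mTSCmKO and 9mTSCmKO+RM. The sources give different rapamycin doses, so none is printed, and the promoter that drives Cre is not given in the sources used here. All mice were fed standard chow. The replicates were separate mice, so that the spread within a group covers both animals and libraries. In whole muscle, fewer cells of a type and less RNA per cell cannot be told apart, and only muscle fibers lost Tsc1.

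Tsc1 is part of a complex that restrains the growth-promoting kinase mTORC1, and rapamycin inhibits mTORC1. PGC-1α (Ppargc1a) and PGC-1β (Ppargc1b) do not bind DNA themselves but are brought to genes by transcription factors, among them the estrogen-related receptors ERRα, ERRβ and ERRγ (Esrra, Esrrb, Esrrg), orphan nuclear receptors that bind DNA as monomers or dimers. The ERRs and their coactivators switch on genes for fatty acid oxidation, the tricarboxylic acid cycle and the respiratory chain, and ERRγ is known for its high level in slow, oxidative muscle. Perm1 is a muscle gene induced by PGC-1 and the ERRs that promotes oxidative gene expression. Nrf1, nuclear respiratory factor 1, activates nuclear genes of the respiratory chain, and one of its known targets, Tfam, packages mitochondrial DNA and starts its transcription.

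Promoter sequence was taken from RefSeq (build GRCm38.p6), where 7 of the 8 genes had an entry among 32851 promoters, and the 250 bases before each start were searched on both strands. The letters searched were AAGGTCA for an ERR site, GCGCATGC for the Nrf1 core, CCGGAAG for the GABP/ETS factors, AAGATGGC for Yy1 and TATAAA for a TATA box. They were present in 4.08%, 2.26%, 6.91%, 1.56% and 12.4% of all promoters. An ERR match lay before Perm1, which is itself an ERR target by background knowledge, an Nrf1 match before Esrra and a GABP/ETS match in Tfam. These 3 stretches are shown because each holds letters known to bind a regulator of this same circuit, with the match in capitals. The other matches were to the TATA letters, in 1 of the 4 Esrrg promoters and 1 of the 2 Nrf1 promoters, and none of the 5 was found for Ppargc1a or in the 2 Esrrb promoters. A match is a description of the letters and not a measured binding site. The Perm1 stretch is 191 bases at chr4:156215677-156215867 on the plus strand, which ends where the gene (ENSMUSG00000078486, chr4:156215868-156221307) starts, and the match lies 202 bases before the RefSeq start, read on the opposite strand. The Esrra stretch is 245 bases at chr19:6921814-6922058 on the minus strand, next to the gene's start (ENSMUSG00000024955, chr19:6910977-6921813), with the match 34 bases before the RefSeq start on the opposite strand. The Tfam stretch is 30 bases at chr10:71238074-71238103 on the minus strand, where the match lies 47 bases before the RefSeq start but inside an untranslated part of an exon of the transcript Tfam-201 (gene ENSMUSG00000003923, chr10:71225464-71238280).
Perm1: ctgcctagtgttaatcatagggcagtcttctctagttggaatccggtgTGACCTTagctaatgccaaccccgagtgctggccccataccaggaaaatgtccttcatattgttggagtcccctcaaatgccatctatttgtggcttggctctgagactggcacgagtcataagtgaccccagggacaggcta
Esrra: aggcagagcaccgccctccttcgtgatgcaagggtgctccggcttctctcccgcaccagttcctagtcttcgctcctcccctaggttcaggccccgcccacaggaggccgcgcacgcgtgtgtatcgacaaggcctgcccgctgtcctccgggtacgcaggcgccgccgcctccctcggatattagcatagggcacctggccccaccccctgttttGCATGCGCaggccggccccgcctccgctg
Tfam: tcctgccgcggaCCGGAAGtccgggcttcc

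Depth was 8883870 to 35224669 counts per library, and the lowest count of any of the 8 genes was 27, for Esrrb. Tsc1, the targeted gene, was at 84.1 to 134 CPM (counts scaled to library size) in 3mCON against 26.5 to 30.7 in 3mTSCmKO, and at 51.3 to 122 CPM in 9mCON against 24.4 to 35.8 in 9mTSCmKO. The genotype labels thus matched in every vehicle library. With rapamycin Tsc1 was at 53.0 to 94.85 CPM in 3mCON+RM against 18.7 to 23.2 in 3mTSCmKO+RM. At 9 months it was at 72.0 to 87.5 CPM in 9mCON+RM against 17.8 to 25.7 in 9mTSCmKO+RM. Tsc1 was itself lower with rapamycin in TSCmKO, by 0.49 on the log2 scale at both ages (edgeR adjusted p = 0.0249 at 9 months and 0.0311 at 3 months). All 7 muscle fiber markers were detected, at 106000 to 155000 summed TPM (the authors' length-scaled unit), which matched the labelled tissue. Of the 2 brown fat markers, Ucp1, through which PGC-1α is best known in that tissue, was at 0 in 37 of 40 libraries and did not exceed 0.271 TPM, and Cidea was at 0 in none, at 0.111 to 2.53 TPM. Their sum was 0.661 to 2.53 TPM in 9mTSCmKO and 0.370 to 0.653 TPM in 9mCON, and neither passed the filter on low counts. Blood cell markers stood highest in replicate 3 of 3mTSCmKO (19260 TPM summed) and replicate 1 of 9mCON (14090 TPM summed). Library insert size moved with age, from 175 to 239 nucleotides at 3 months and from 223 to 308 at 9 months, and a fit with insert size as a term was run as an alternative.

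Levels of the 8 genes spanned a wide range, compared here in TPM, which corrects for transcript length. Perm1 was the most abundant by group mean in 7 of the 8 groups, from 68.5 TPM in 3mTSCmKO+RM to 138 TPM in 3mCON, and Esrra averaged 57.4 to 69.7 TPM over the 8 groups. In 9mTSCmKO+RM Perm1 averaged 51.6 TPM, behind Esrra at 57.6 and Tfam at 52.8 TPM, although the libraries of these 3 genes overlapped. Perm1 stood clear of the gene next below it, with no overlap of libraries, in 3mCON (Esrra) and 9mTSCmKO+RM (Esrrg), and overlapped it in the other 6 groups. In 3mCON+RM that gene was Ppargc1a, at 58.3 TPM. Tfam was at 44.8 to 57.1 TPM by group mean, and Nrf1 at 9.48 to 12.6 TPM. Esrrb was the lowest of the 8 in every group, at 1.72 to 5.97 TPM. Its libraries overlapped those of its neighbour in this order in 3mTSCmKO (Nrf1), 9mCON and 9mTSCmKO (Ppargc1b in both).

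Within the ERR family, Esrra supplied most of the transcripts in every group, from 73.0% ± 4.19 (SD, n = 5) of the summed ERR TPM in 9mTSCmKO to 87.6% ± 3.19 in 9mCON+RM. Esrrg supplied 10.2% ± 2.99 in 9mCON and 20.8% ± 3.53 in 9mTSCmKO, and Esrrb 3.21% ± 1.09 and 6.24% ± 1.65. For Esrrg these shares did not overlap (5.67% to 12.6% against 14.8% to 23.6%), whereas for Esrrb they did. Among the PGC-1 pair, Ppargc1b made up 17.2% ± 5.30 of the summed TPM in 3mCON and 34.5% ± 6.60 in 3mTSCmKO, and 22.5% ± 3.93 in 9mCON and 37.9% ± 6.87 in 9mTSCmKO. The Ppargc1b share was thus higher in TSCmKO than in CON at both ages, with no overlap of libraries, while Ppargc1a remained the larger part in each group mean. These shares are descriptions of the composition and were not tested.

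**Figure D1:**
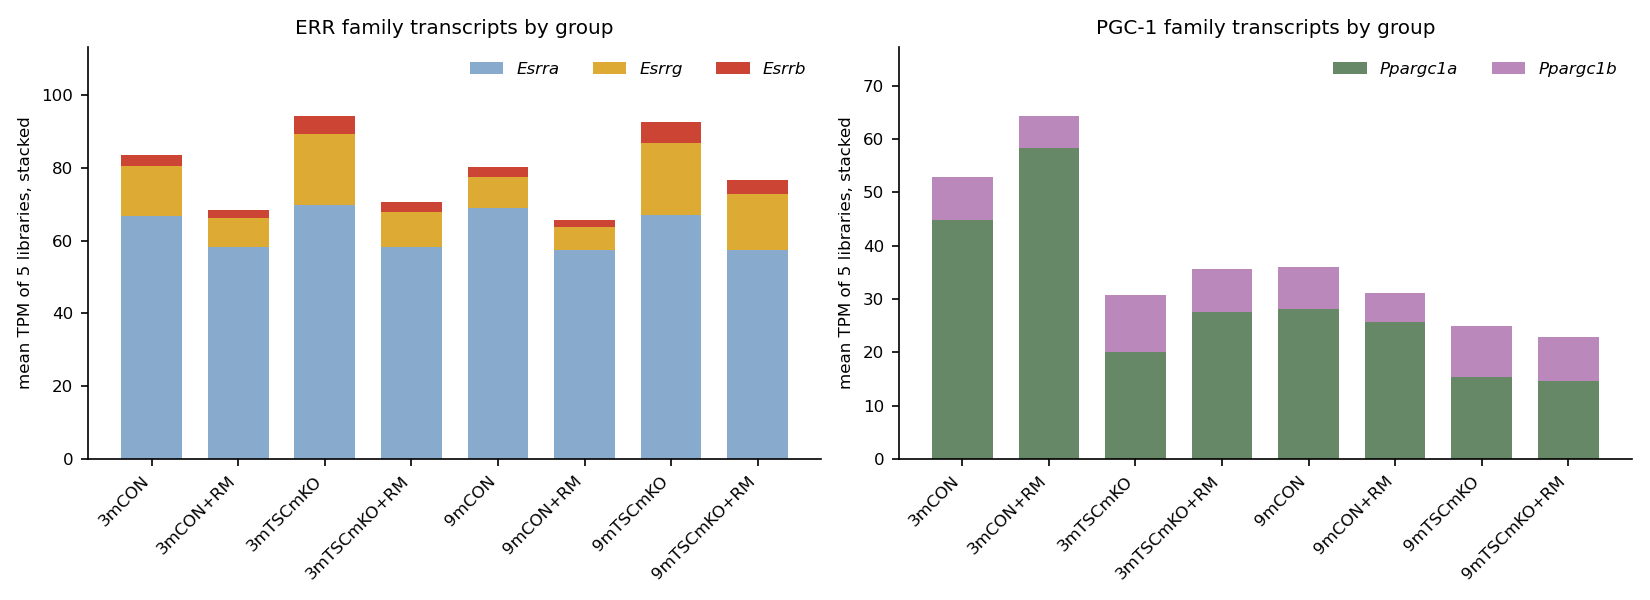
Mean TPM of 5 libraries, stacked, of the 3 ERR genes (left) and the 2 PGC-1 genes (right) in the 8 groups. Esrra made up most of every ERR bar, and the Esrrg part was 8.49 TPM in 9mCON and 19.7 TPM in 9mTSCmKO.

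Loss of Tsc1 lowered the coactivator Ppargc1a at 3 months. Ppargc1a (ENSMUSG00000029167, chr5:51454250-51567726, minus strand) was at 86.0, 84.4, 199, 73.0 and 81.1 CPM in the 5 3mCON libraries, scaled by trimmed mean of M-values (TMM). In 3mTSCmKO it was at 43.0, 53.0, 42.4, 54.2 and 47.1 CPM. All 5 TSCmKO libraries lay below all 5 CON libraries, as for 19.6% of all genes in either direction, and 1 CON library, replicate 3, stood far above the rest. The same library was the highest of 3mCON in summed slow and oxidative fiber markers (945 TPM, the others at most 475), adipocyte markers (220.2, at most 72.2) and Schwann cell markers (205, at most 131), and their part was not tested. The group means were 105 ± 53.1 and 47.9 ± 5.47 CPM (SD, n = 5), and the log2 fold change was −1.13 (standard error 0.345, adjusted p = 0.0172, edgeR quasi-likelihood test with Benjamini-Hochberg adjustment). Without replicate 3 of 3mCON the log2 fold change was −0.74 and the adjusted p 0.128. That library was also the highest 3mCON library for Esrrb, Esrrg and Perm1. At this age 2 of the 8 genes were called, against 19.8% of all genes tested, and the other was Esrrb.

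At 9 months Ppargc1a was at 57.9, 36.1, 77.2, 93.7 and 92.7 CPM in 9mCON and at 43.9, 50.01, 28.0, 40.6 and 37.5 CPM in 9mTSCmKO. Replicate 2 of 9mCON lay among the TSCmKO libraries, and the other 4 lay above them all. The log2 fold change of −0.84 (95% interval −1.52 to −0.16) had an adjusted p of 0.0525 by edgeR and 0.0490 by DESeq2, and without replicate 2 of 9mCON it was −1.01 with an adjusted p of 0.0231. Averaged over both ages, a comparison added after the values had been seen, Ppargc1a fell by 0.98 on the log2 scale (adjusted p = 0.00132). Here 3 of the 8 genes were called, Ppargc1a, Esrrb and Esrrg, against 42.7% of all genes tested, and the difference between the ages was not called for any of the 8.

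Ppargc1b (ENSMUSG00000033871, chr18:61298136-61400431, minus strand), the second coactivator, ranged from 10.9 to 17.4 CPM in 3mCON and from 11.5 to 22.9 in 3mTSCmKO, and from 7.92 to 20.5 in 9mCON and 11.7 to 23.4 in 9mTSCmKO. The libraries of both genotypes overlapped widely at either age. The log2 fold changes were 0.35 (95% interval −0.06 to 0.75) at 3 months and 0.18 (−0.23 to 0.59) at 9 months, with adjusted p of 0.252 and 0.516. A rise of the size seen for Esrrg at 9 months lay outside both intervals, and a small change in either direction lay inside the interval at 9 months.

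**Figure D2:**
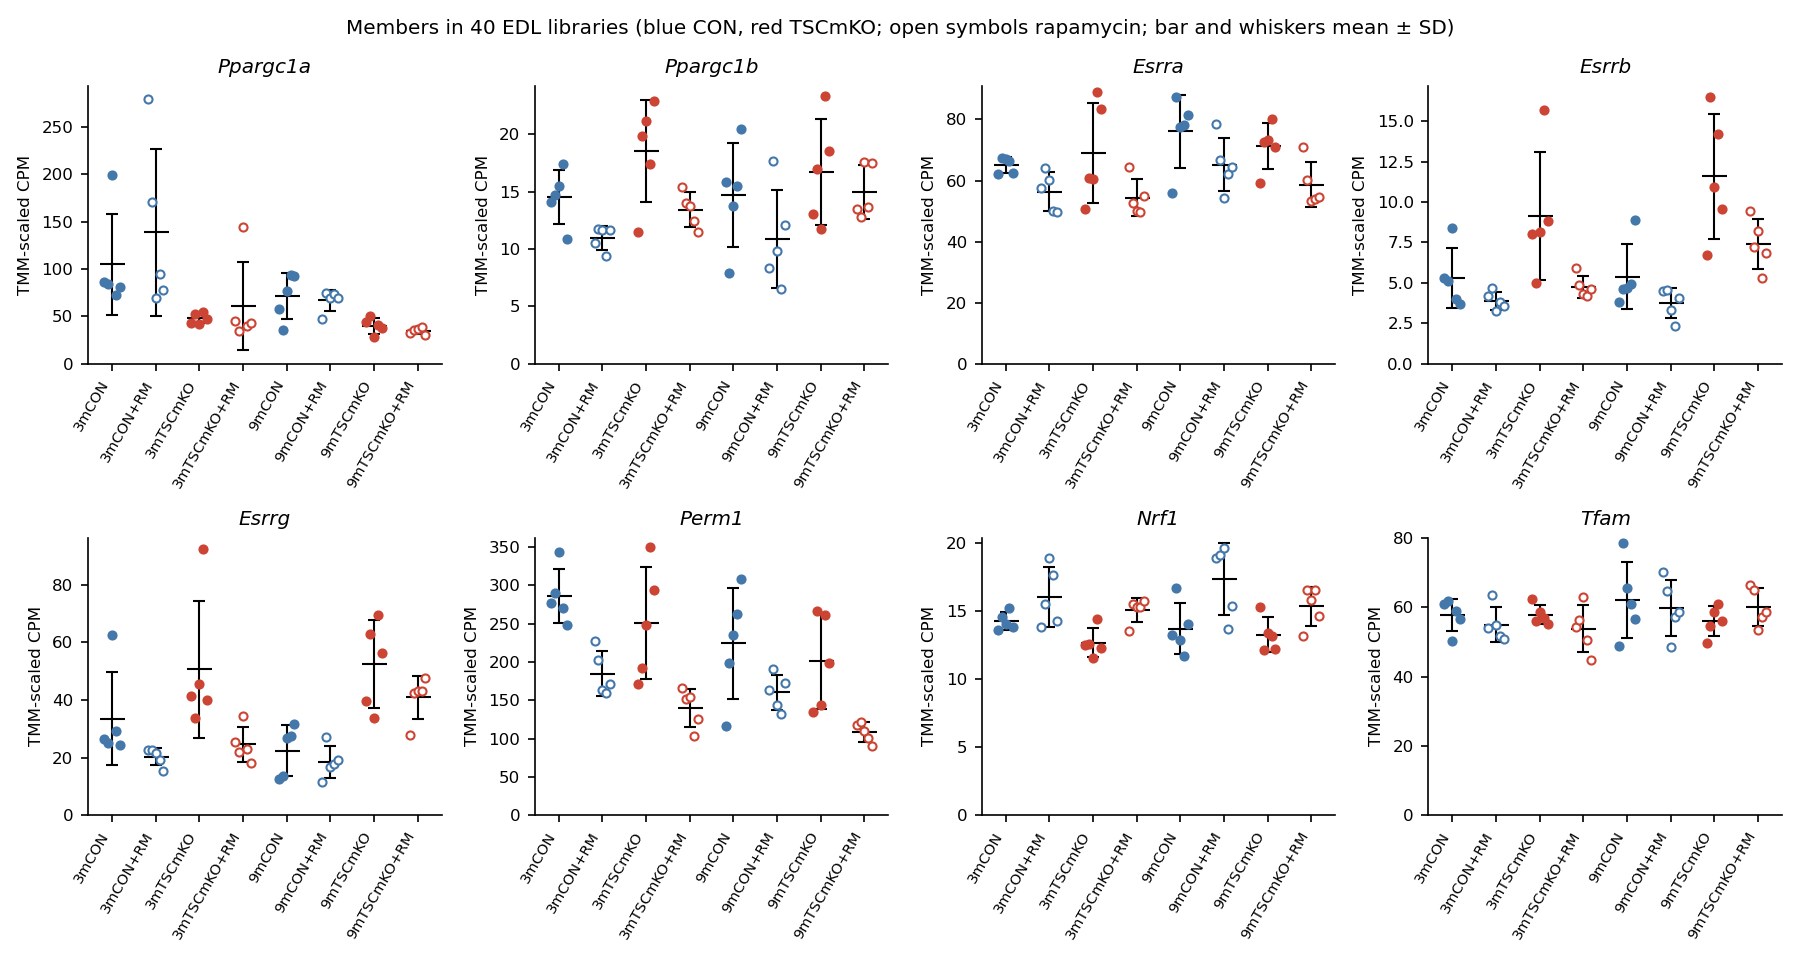
Level of each of the 8 genes in each library, as TMM-scaled CPM, with 1 point per mouse, 5 per group, and the group mean ± SD as a black bar (filled: vehicle, open: rapamycin). Ppargc1a reached 280.1 CPM in 1 library of 3mCON+RM, and Esrrb and Esrrg were higher in 9mTSCmKO than in 9mCON, at means of 11.6 against 5.39 and 52.3 against 22.4 CPM.

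Esrrb and Esrrg both rose in 9mTSCmKO, while Esrra did not pass the test. Esrrg (ENSMUSG00000026610, chr1:187608791-188214885, plus strand) was at 12.4, 13.7, 26.6, 27.5 and 31.7 CPM in 9mCON and at 39.6, 62.7, 33.6, 69.5 and 56.2 CPM in 9mTSCmKO. Every TSCmKO library lay above every CON library, a separation seen for 16.0% of all genes tested. Its log2 fold change was 1.22 (SE 0.282, adjusted p = 0.000775), a 2.33-fold rise. Esrrb (ENSMUSG00000021255, chr12:86361117-86521628, plus strand), the receptor best known from stem cells and the inner ear, was at 3.84, 4.60, 4.71, 4.91 and 8.88 CPM in 9mCON and at 6.71, 16.5, 10.95, 14.2 and 9.58 CPM in 9mTSCmKO. The groups met only through replicate 5 of 9mCON and replicate 1 of 9mTSCmKO. The log2 fold change was 1.09 (SE 0.250, adjusted p = 0.000650). These were the 2 of 8 genes called, both higher, against 37.9% of all genes called in either direction and 19.1% called higher. Both calls held in every alternative run and without any 1 library.

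At 3 months the 2 receptors also lay higher in TSCmKO, but with more dependence on single libraries. Esrrb was at 5.32, 5.10, 8.39, 4.02 and 3.72 CPM in 3mCON and at 8.04, 4.97, 8.12, 15.7 and 8.82 CPM in 3mTSCmKO. The ranges overlapped, and replicate 4 of 3mTSCmKO was far above the others. It was also the highest of its group in summed slow and oxidative fiber markers (1745 TPM, the others at most 1205), adipocyte markers (219, at most 70.4) and Schwann cell markers (212, at most 102), and their part was not tested. The log2 fold change of Esrrb was 0.78 (SE 0.249, adjusted p = 0.0212), and it was 0.51 with an adjusted p of 0.145 without that library. Leaving out replicate 4 or 5 of 3mCON also ended the call (adjusted p = 0.0714 and 0.0649), as did a fit to these 2 groups alone (0.0711). Esrrg was at 26.3, 25.2, 62.4, 29.1 and 24.5 CPM in 3mCON and at 41.2, 33.8, 45.6, 92.3 and 39.95 CPM in 3mTSCmKO. Apart from replicate 3 of 3mCON, the control libraries lay below all the TSCmKO libraries. The log2 fold change of 0.59 had an adjusted p of 0.137, and without that replicate it was 0.96 with an adjusted p of 0.00943. The difference in genotype effect between 9 and 3 months was 0.63 for Esrrg (95% interval −0.14 to 1.40, adjusted p = 0.388) and 0.31 for Esrrb (−0.38 to 0.995, adjusted p = 0.675). Over both ages together the log2 fold changes were 0.91 for Esrrg and 0.94 for Esrrb (adjusted p = 0.000317 and 3.8e-05).

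Esrra, the most abundant receptor, ranged from 55.9 to 87.4 CPM in 9mCON and from 59.1 to 80.1 in 9mTSCmKO, and from 62.2 to 67.5 in 3mCON and 50.7 to 88.9 in 3mTSCmKO. The TSCmKO libraries at 3 months fell on both sides of a tight control group. Its log2 fold changes were −0.09 (95% interval −0.34 to 0.15) at 9 months and 0.08 (−0.16 to 0.33) at 3 months, with adjusted p of 0.584 and 0.701. Esrra overlaps Trmt112 on the opposite strand, and Esrrg overlaps Gm36388. The libraries were directional. Of the 31-base words in the transcripts of the 8 genes, at most 0.635% (Esrra) also occurred in other genes, and none did for Esrrb and Perm1, so that reads shared between the receptors would be rare.

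Markers of slow and oxidative fibers were higher in 9mTSCmKO, where Esrrb and Esrrg also rose. The 7 markers (Myh7, Myh2, Tnni1, Tnnc1, Tnnt1, Myl2 and Atp2a2) summed to a median of 228 TPM (169 to 488) in 9mCON and 2600 TPM (1640 to 3980) in 9mTSCmKO, and to 437 TPM (251 to 945) in 3mCON and 1200 TPM (569 to 1750) in 3mTSCmKO. Of these 6 of 7 were higher at 9 months, with a median log2 fold change of 3.48, and 2 of 7 at 3 months, against 37.9% and 19.8% of all genes called in either direction. None of the 7 was at 0 in any library. With rapamycin the sum was 1010 to 1820 TPM in 9mTSCmKO+RM and 466 to 1240 TPM in 3mTSCmKO+RM. It was 238 to 567 TPM in 9mCON+RM and 340 to 520 TPM in 3mCON+RM. In 9mCON+RM against 9mCON the median marker log2 fold change was 0.52, with Esrrb at −0.51 and Esrrg at −0.28, none of them called. In 3mTSCmKO+RM the median sum of 821 TPM lay above that of 3mCON, while Esrrg averaged 24.6 CPM against 33.5 in 3mCON. Of the muscle fiber markers 4 of 7 were lower in 9mTSCmKO, where their sum was 106000 to 121000 TPM against 140000 to 155000 in 9mCON. In the same comparison 4 of 6 tendon, 2 of 3 fibroblast, 2 of 4 endothelial, 2 of 5 adipocyte and 1 of 4 Schwann cell markers were lower and 1 of 4 macrophage markers higher, with a median of −1.87 for tendon. The part of fiber type and of these other cells in the receptor levels was not tested.

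**Figure D3:**
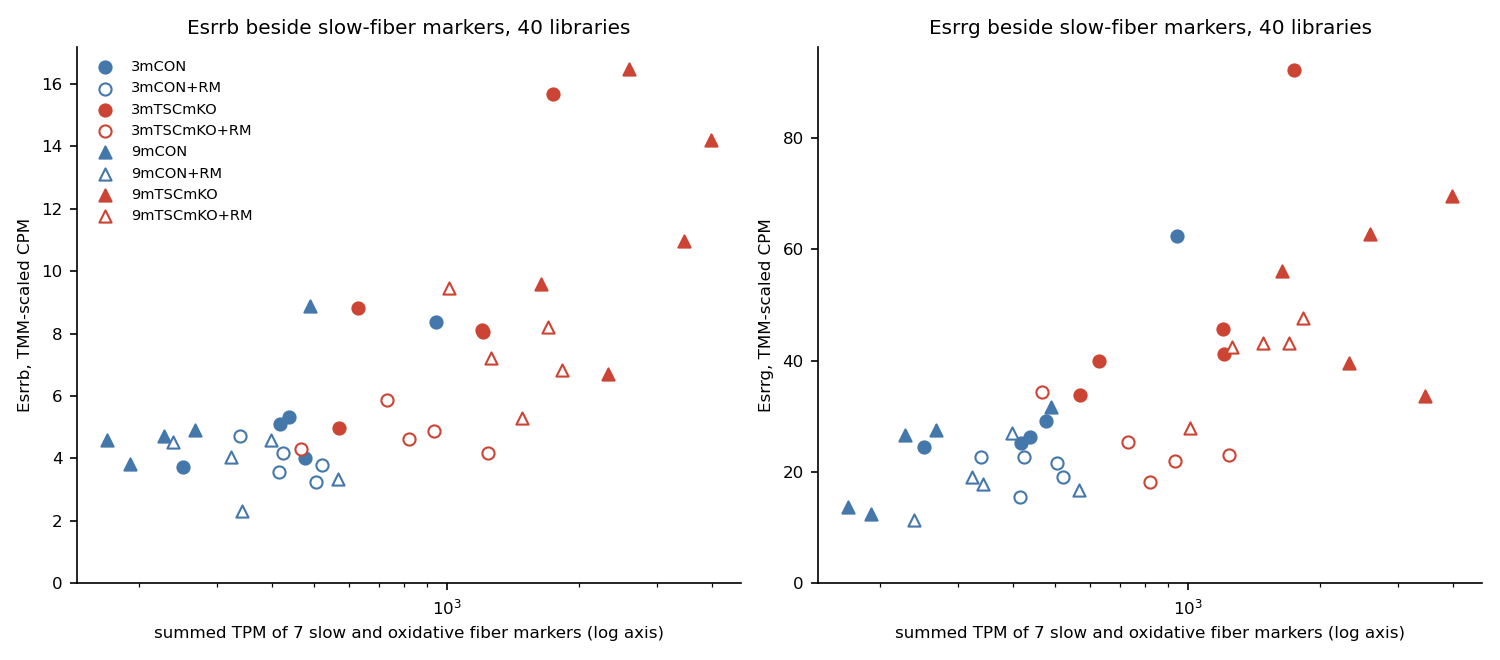
Esrrb (left) and Esrrg (right), in TMM-scaled CPM on the vertical axes, plotted against the summed TPM of 7 slow and oxidative fiber markers on a log scale, with 1 point per library. The 9mTSCmKO libraries, at 1640 to 3980 TPM of markers, and the 9mCON libraries, at 169 to 488 TPM, lay apart on the horizontal axis.

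Perm1, Nrf1 and Tfam were not called between the genotypes at either age. Perm1 was at 116, 199, 236, 263 and 308 CPM in 9mCON and at 135, 267, 143, 261 and 199 CPM in 9mTSCmKO, and the values of both genotypes were spread alike. The log2 fold changes were −0.16 (95% interval −0.55 to 0.23) at 9 months and −0.19 (−0.58 to 0.20) at 3 months. Nrf1 (ENSMUSG00000058440, chr6:30047988-30153458, plus strand) was the steadiest of the 8 together with Tfam and Esrra, with a highest library 1.70 times the lowest over all 40. Nrf1 differed by −0.05 (−0.26 to 0.16) and −0.17 (−0.38 to 0.04) at 9 and 3 months on the log2 scale, and Tfam by −0.15 (−0.35 to 0.06) and 0.00 (−0.20 to 0.21). A halving or doubling of Perm1, Nrf1 or Tfam thus lay outside these intervals.

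Rapamycin lowered Perm1 in TSCmKO muscle at both ages. Perm1 was at 118, 122, 110.4, 100.9 and 89.8 CPM in 9mTSCmKO+RM, and all 5 values lay below the lowest 9mTSCmKO library at 135 CPM, a separation seen for 15.1% of all genes. The log2 fold change was −0.89 (SE 0.200, adjusted p = 0.000697). At 3 months it was at 171, 193, 249, 350 and 294 CPM in 3mTSCmKO and at 166, 151, 154, 104 and 125 CPM in 3mTSCmKO+RM. The groups again did not overlap, as for 21.1% of all genes, though the nearest pair of libraries differed little. The log2 fold change was −0.84 (SE 0.200, adjusted p = 0.00154). Both calls held in every alternative run and without any 1 library. In both comparisons 3 of 7 muscle fiber markers were higher and 1 lower, while slow and oxidative fiber markers were 1 higher and 2 lower at 9 months and 1 higher and 1 lower at 3 months. Of the other cell type markers, 1 of 6 tendon and 1 of 4 macrophage genes were lower and 1 of 4 endothelial genes was higher and 1 lower at 9 months, while 1 tendon, 1 macrophage and 1 of 3 fibroblast genes were higher at 3 months. The part of these markers was not tested. The 9mTSCmKO and 3mTSCmKO libraries are those used in the genotype comparisons.

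All 3 ERRs were called lower with rapamycin in TSCmKO at 3 months, and Esrrb alone of them at 9 months. In 3mTSCmKO+RM Esrrg was at 25.3, 22.1, 34.4, 23.1 and 18.3 CPM, and only replicate 3 reached the 3mTSCmKO libraries. Its log2 fold change was −1.04 (SE 0.279, adjusted p = 0.00530), and −0.71 with an adjusted p of 0.0537 without replicate 4 of 3mTSCmKO. Esrrb, at 5.89, 4.87, 4.31, 4.16 and 4.63 CPM, fell by 0.95 (SE 0.248, adjusted p = 0.00416), a call that held without any 1 library. Esrra fell by 0.34 (SE 0.126, adjusted p = 0.0433), from a mean of 68.9 ± 16.4 to 54.4 ± 6.02 CPM. Its call was lost in 5 of 7 alternatives and on leaving out 1 of 6 libraries, with an adjusted p of up to 0.193 without replicate 4 of 3mTSCmKO, the highest Esrra library. With Perm1, 4 of the 8 genes were called at 3 months, all lower, against 23.6% of all genes called in either direction. The threshold was missed by Ppargc1b at −0.47 (adjusted p = 0.0962) and Nrf1 at 0.25 (0.0862).

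At 9 months Esrrb was at 9.47, 7.20, 8.21, 5.31 and 6.83 CPM in 9mTSCmKO+RM, which overlapped 9mTSCmKO. It fell by 0.64 (SE 0.246, adjusted p = 0.0410), and the call was lost in 4 of 7 alternatives and on leaving out any 1 of 7 libraries, with an adjusted p of up to 0.118 without replicate 2 of 9mTSCmKO. Perm1 and Esrrb were the 2 of 8 genes called, both lower, against 32.6% of all genes called and 16.8% called lower. Esrrg was at 27.9, 42.5, 43.2, 43.1 and 47.7 CPM, within the range of 9mTSCmKO save for the first, with a log2 fold change of −0.36 (95% interval −0.90 to 0.19, adjusted p = 0.339). Esrra, at −0.28, had an adjusted p of 0.0842. Ppargc1a was at 32.0, 35.7, 37.0, 39.2 and 30.4 CPM, and its log2 fold change of −0.20 (−0.88 to 0.48, adjusted p = 0.694) left a rise to the 9mCON level outside the interval. In 3mTSCmKO+RM it was at 44.9, 34.2, 144, 40.3 and 43.1 CPM, where replicate 3 alone exceeded the 3mTSCmKO libraries, and the log2 fold change was 0.35 (−0.32 to 1.02), which turned to −0.24 (adjusted p = 0.629) without that library.

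**Figure D4:**
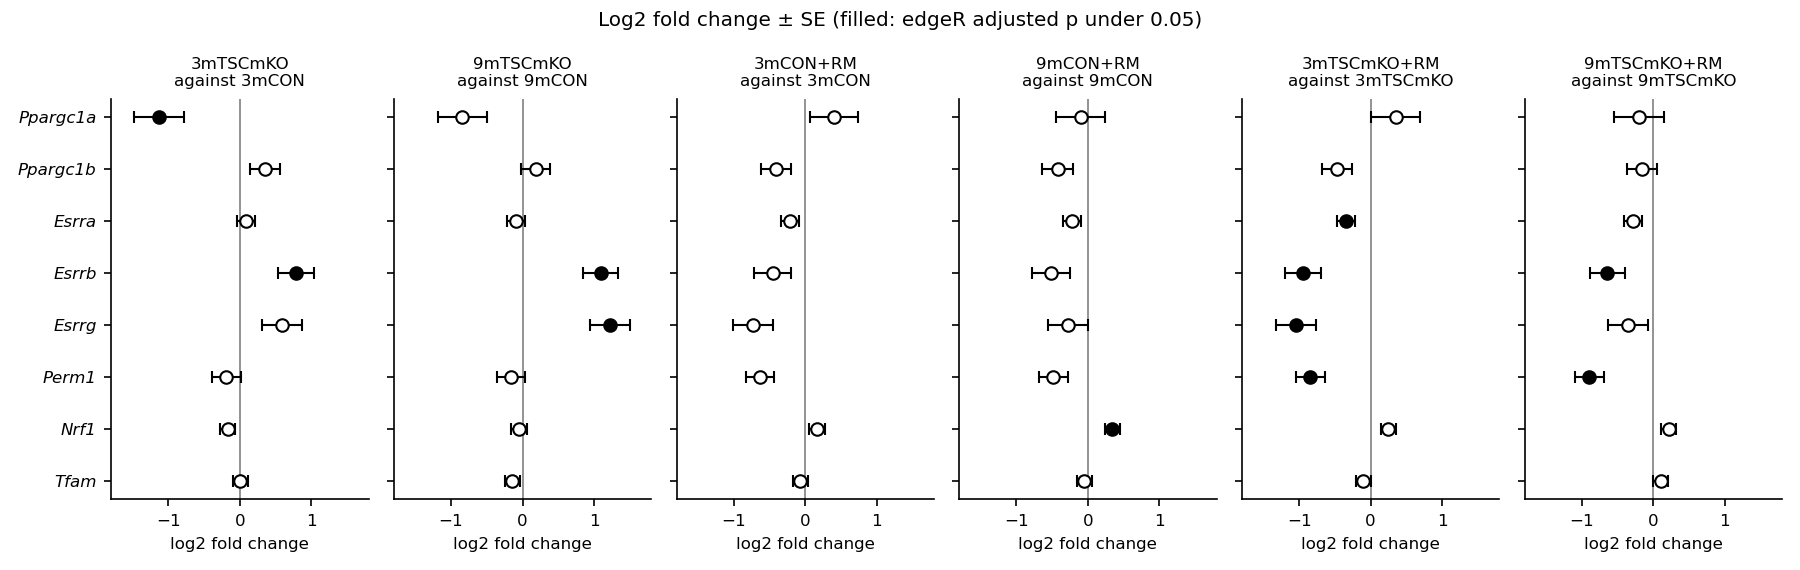
Log2 fold change of each of the 8 genes in the comparisons of genotype and of rapamycin, from the edgeR fit, with the standard error as bars and filled points where the adjusted p was under 0.05. Perm1 fell with rapamycin in TSCmKO at both ages (−0.89 and −0.84), and Esrrb and Esrrg rose with Tsc1 loss at 9 months (1.09 and 1.22).

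In CON muscle rapamycin raised Nrf1 at 9 months, a call that depended on single libraries. Nrf1 was at 13.2, 16.7, 12.8, 11.7 and 14.1 CPM with vehicle and at 18.9, 19.1, 19.6, 13.7 and 15.4 CPM with rapamycin. The first 3 rapamycin libraries lay above all vehicle libraries, and the others lay among them. Its log2 fold change of 0.34 (SE 0.107, adjusted p = 0.0296) was the 1 call among 8 genes, against 11.8% of all genes. That call was lost on leaving out any 1 of 6 libraries (adjusted p up to 0.0926 without replicate 2 of 9mCON+RM), with upper-quartile scaling (0.0546) and in a fit to these 2 groups alone (0.223). Perm1, at −0.48, had an adjusted p of 0.114, and 0.0238 without replicate 1 of 9mCON, its lowest control library. In this comparison 5 of 6 tendon markers, 3 of 4 macrophage markers and 3 of 3 fibroblast markers were lower, against 11.8% of all genes called, with tendon sums of 57.4 to 382 TPM in 9mCON and 23.0 to 53.3 TPM in 9mCON+RM. Their part in the result was not tested.

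At 3 months none of the 8 genes was called with rapamycin in CON by edgeR or by DESeq2, against 0.679% of all genes, and 2 had an unadjusted p below 0.05. These were Perm1, at 278, 290.1, 344, 271 and 248 CPM in 3mCON and 228, 203, 163, 160.0 and 171 CPM in 3mCON+RM, and Esrrg, at 22.8, 22.7, 21.7, 19.1 and 15.5 CPM in 3mCON+RM. For both genes every rapamycin library lay below every vehicle library, as for 5.41% of all genes. The log2 fold changes were −0.63 for Perm1 (adjusted p = 0.167) and −0.73 for Esrrg (adjusted p = 0.324). With 1 library left out at a time they ran from −0.72 to −0.55 for Perm1 and from −0.82 to −0.37 for Esrrg. In a fit to these 2 groups alone Perm1 had an adjusted p of 0.00792. Ppargc1a was at 280.1, 170.4, 69.9, 94.7 and 77.9 CPM in 3mCON+RM, with the largest SD (88.5 CPM) of any of the 8 genes in any group, and its log2 fold change of 0.40 had an interval of −0.27 to 1.07. Leaving out 1 library at a time gave values from −0.02 to 0.78.

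A difference in the effect of rapamycin between the genotypes was called for none of the 8 genes by edgeR or DESeq2, at 9 months (4.87% of all genes called) or 3 months (3.45%), and none had an unadjusted p below 0.05. For Perm1 the difference was −0.41 (95% interval −0.96 to 0.14) at 9 months and −0.21 (−0.76 to 0.34) at 3 months, intervals that hold a difference as large as the effect in CON. Averaged over the 4 backgrounds, a comparison added after the values had been seen, 6 of the 8 genes were called, against 39.3% of all genes. Of the 6, 5 were lower, against 21.0% of all genes called lower. Perm1 fell by 0.71 (adjusted p = 3.0e-07), Esrrb by 0.64 (9.6e-05), Esrrg by 0.60 (0.000738), Ppargc1b by 0.37 (0.00487) and Esrra by 0.26 (0.000903). Nrf1 rose by 0.24 (adjusted p = 0.000343), and Ppargc1a and Tfam were not called, at 0.11 (95% interval −0.22 to 0.45) and −0.03 (−0.13 to 0.07). These 6 calls held in all 6 alternatives that gave a value and without any 1 of the 40 libraries. Over the same 4 backgrounds, 3 of 7 muscle fiber markers were called higher and 1 lower, 1 of 7 slow and oxidative fiber markers higher and 2 lower, and 1 of 6 tendon markers higher and 2 lower. Of the other cell type markers, 1 of 4 endothelial, 1 of 4 macrophage and 1 of 3 fibroblast genes were called lower, and their part in the result was not tested.

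Rapamycin-treated TSCmKO muscle was also compared with vehicle-treated controls. In 9mTSCmKO+RM against 9mCON, 4 of 8 genes were called, against 31.9% of all genes. Perm1 fell by 1.05 (adjusted p = 8.9e-05), Ppargc1a by 1.04 (0.0204) and Esrra by 0.38 (0.0205), while Esrrg rose by 0.87 (0.0169). In this comparison 7 of 7 slow and oxidative fiber markers were higher (median 2.38), and 5 of 6 tendon (median −2.76), 3 of 3 fibroblast and 2 of 4 macrophage markers were lower, and their part was not tested. Only the Perm1 call held throughout. Ppargc1a lost its call without replicate 4 or 5 of 9mCON (adjusted p = 0.0530 and 0.0557) and with insert size as a term (0.0542), Esrrg without replicate 1 or 2 of 9mCON (0.0572 and 0.0555), and Esrra in 2 of 7 alternatives and without 1 of 3 libraries (up to 0.0609, without replicate 2 of 9mCON). In 3mTSCmKO+RM against 3mCON, Perm1 alone was called (12.5% of the 8 genes against 16.7% of all genes), with a fall of 1.03 (adjusted p = 0.000242) and no overlap of libraries, as for 19.1% of all genes. Ppargc1a, at −0.78 (adjusted p = 0.121), was at −1.35 with an adjusted p of 0.00197 without replicate 3 of 3mTSCmKO+RM.

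Between 3 and 9 months none of the 8 genes was called in either genotype by edgeR or DESeq2. Library insert size moved with age, so that age and insert size cannot be fully told apart in these values. In CON, where 1.02% of all genes were called, only Esrrg had an unadjusted p below 0.05, with a log2 fold change of −0.59 (95% interval −1.14 to −0.03, adjusted p = 0.272). That value ran from −0.75 to −0.22 with 1 library left out at a time. In TSCmKO, where 37.4% of all genes were called, none of the 8 had an unadjusted p below 0.05. Esrrb was at 0.33 there (−0.14 to 0.80) and Perm1 at −0.32 (−0.71 to 0.07). In the same comparison 5 of 7 slow and oxidative fiber markers were higher and 1 lower, and 3 of 7 muscle fiber markers lower. Of the others, 5 of 6 tendon (median −2.57), 5 of 5 adipocyte (−2.61) and 3 of 4 blood cell markers were lower. So were 3 of 4 endothelial and 2 of 3 fibroblast markers. Higher were 1 tendon and 1 Schwann cell marker, while 1 macrophage marker was higher and 1 lower. Their part was not tested. With insert size, which moved with age, as a term, the direction in TSCmKO turned for 5 of the 8 genes, none of them called. Perm1 was then at 0.12, Ppargc1a at 0.39 instead of −0.26, Ppargc1b at 0.27 instead of −0.15, Tfam at 0.06 instead of −0.05 and Nrf1 at −0.01 instead of 0.06. In CON the same term put Esrrg at −0.28, Ppargc1a at −0.03 instead of −0.55 and Perm1 at 0.0009 instead of −0.35. Without replicate 4 of 3mTSCmKO the value for Esrrb was 0.62 with an adjusted p of 0.0392. A difference in the genotype effect between the ages was called for none of the 8 by edgeR or DESeq2 (4.94% of all genes called), and none had an unadjusted p below 0.05.

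The wider circuit was followed with 3 lists from background knowledge: 41 tested regulators and partners, 36 ERR and PGC-1 target genes and 20 genes for mitochondrial DNA upkeep and expression. In 9mTSCmKO against 9mCON, 3 regulators were higher and 14 lower, 41.5% of the list against 37.9% of all genes called (median log2 fold change −0.25, against −0.02 for all genes). The nuclear receptors that pair with PGC-1 contributed 4 of 8 lower, among them Rxrg, a retinoid X receptor (−1.63, adjusted p = 2.9e-10), and Thra, a thyroid hormone receptor (−0.82, 1.5e-07). Prkaa1, a catalytic subunit of the energy sensor AMPK, rose by 0.99 (6.2e-08), and Mapk14, the p38 kinase that activates PGC-1α, fell by 0.73 (7.2e-06). Pprc1, the third PGC-1 family member, fell by 0.32 (0.0237), and the corepressor Nrip1 by 0.61 (0.0261), one of 3 corepressors and inhibitors lower of 7. Ppara, Ppard, Yy1 and Gabpa were not called. At 3 months 5 regulators were higher and 5 lower, 24.4% against 19.8% of all genes, with Rxrg at −1.15 (9.2e-07).

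With rapamycin in TSCmKO, 14 regulators were higher and 2 lower at 9 months, 39.0% of the list against 32.6% of all genes called (median 0.18, against −0.04 for all genes). Pprc1 rose by 0.78 (adjusted p = 1.3e-06), Rxrb by 0.46 (8.5e-05) and Yy1 by 0.40 (0.000894), while Prkag3, the AMPK subunit of fast fibers, fell by 1.10 (3.0e-06). Of the 7 corepressors and inhibitors, 5 were higher and none lower, against the same 32.6%. The 9mTSCmKO libraries are also those of the genotype comparison, where they stand on the opposite side. At 3 months the counts over all regulators were 5 higher and 9 lower, 34.1% against 23.6% of all genes, with Prkag3 at −1.37 (7.3e-08) and falls of Ppara (−0.92, 0.0460) and Ppard (−0.48, 0.00365).

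Target genes were called in both directions with Tsc1 loss, with 6 higher and 9 lower at 9 months and 5 higher and 8 lower at 3 months (medians −0.05 and −0.17). These were 41.7% of the list against 37.9% of all genes at 9 months, and 36.1% against 19.8% at 3 months. Bdh1 and Ldhb, which handle ketone bodies and lactate in oxidative muscle, rose at 9 months by 2.18 (2.5e-07) and 1.75 (1.6e-08). Vegfa, the angiogenic factor induced by PGC-1α, fell by 0.97 (6.5e-08), the glucose carrier Slc2a4 by 0.67 (5.6e-06) and Acadm, of fatty acid oxidation, by 0.42 (0.0106). With rapamycin in TSCmKO, 1 target was higher and 10 lower at 9 months (30.6% of the list against 32.6% of all genes), and none higher and 9 of 36 lower at 3 months (against 23.6%). Bdh1 fell by 2.33 (1.8e-07) at 9 months and 1.64 (5.9e-05) at 3 months, and Ldhb by 1.24 (1.5e-05) and 1.14 (6.6e-05). Ckmt2, mitochondrial creatine kinase, fell by 0.92 (0.000345), Cycs, cytochrome c, by 0.80 (0.0114) and Oxct1, of ketone use, by 0.68 (1.6e-05) at 9 months. Pdk4 was called only with rapamycin at 3 months (−1.01, adjusted p = 0.0486) of these 4 comparisons, and Cpt1b in none of them. At each age the comparisons of genotype and of rapamycin share the vehicle TSCmKO libraries.

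Of the 20 genes for mitochondrial DNA upkeep, 2 were higher and 3 lower with Tsc1 loss at 9 months, against 37.9% of all genes called, and none higher and 2 lower at 3 months, against 19.8%. Mgme1, a mitochondrial exonuclease, fell by 1.07 (1.5e-09) and Twnk, the mitochondrial helicase, by 0.54 (0.000162) at 9 months. With rapamycin in 9mTSCmKO, 8 were higher and 2 lower, against 32.6% of all genes called (median 0.10, against −0.04 for all genes), and Mgme1 rose by 0.88 (2.5e-07), Twnk by 0.85 (1.6e-07), Top1mt by 0.85 (1.4e-07), Tfb1m by 0.69 (0.000632), Polrmt by 0.55 (0.000994) and Tfb2m by 0.40 (0.00983). Slirp, an RNA-stabilizing protein, fell by 0.90 (5.1e-05). The 9mTSCmKO libraries are those also used for the effect of Tsc1 loss. At 3 months 4 were higher and 1 lower, against 23.6% of all genes. Tfam itself, which works with Polrmt and Tfb2m at the same promoters, was not called with rapamycin in TSCmKO, at 0.10 (95% interval −0.10 to 0.31) at 9 months and −0.10 (−0.31 to 0.10) at 3 months. The transcripts encoded by mitochondrial DNA were not analysed here.

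**Figure D5:**
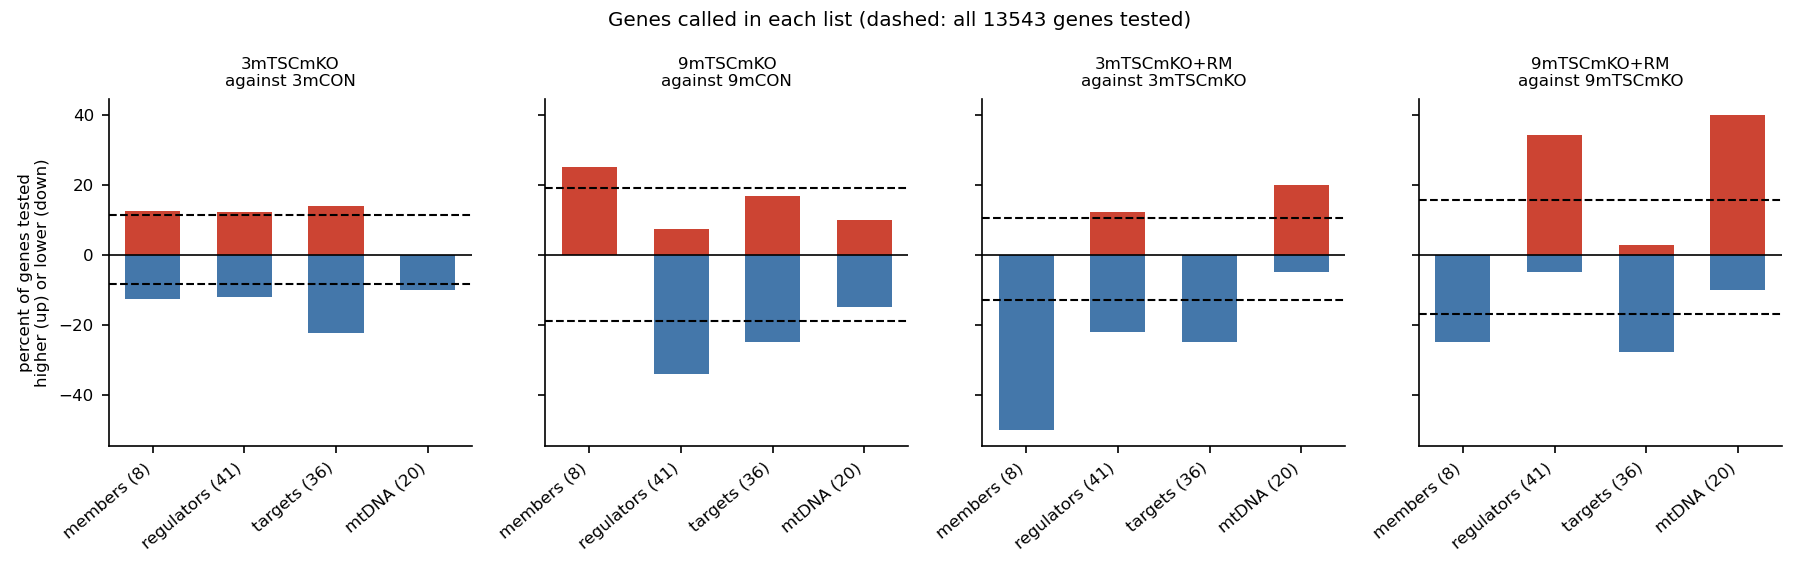
Percent of the tested genes of each list called higher (upward bars) and lower (downward bars) by edgeR in 4 comparisons, with dashed lines for all genes tested. Of 41 regulators and partners, 3 were higher and 14 lower in 9mTSCmKO against 9mCON, and 14 higher and 2 lower in 9mTSCmKO+RM against 9mTSCmKO. Both comparisons use the same 9mTSCmKO libraries, on opposite sides.

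The genes whose levels ran most alike were ranked by Pearson's r of log2 CPM over all 40 libraries, among 9638 genes with a mean of at least 5 CPM. Groups, depth and fiber type are shared by these points, so that the values describe likeness only. Esrrb ran most like Ldhb (0.892), Idh2 (0.861) and Bdh1 (0.836), which encode enzymes of oxidative metabolism, and least like Cd46 (−0.832). Perm1 ran most like Akap1 (0.895), which anchors protein kinase A at the outer mitochondrial membrane, the magnesium carrier Slc41a1 (0.889) and Trp53inp2 (0.831), and least like Tmem214 (−0.816). For Esrra they were Coa3 (0.791) and Ndufb8 (0.790), of the respiratory chain, and Akr1b10 (0.784), with Atrx lowest (−0.777).

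Esrrg ran most like Zfp770 (0.865), Ppm1b (0.856) and Plekha1 (0.852), and least like Myhas (−0.826). For Ppargc1a they were Dock4 and P2ry1 (both 0.749) and Tug1 (0.733), with Car11 lowest (−0.789), and for Ppargc1b Ttc38 (0.715), Cnnm4 (0.709) and Extl1 (0.695), with Tmx1 lowest (−0.732). Nrf1 ran most like the chaperonin subunits Cct2 (0.738) and Cct4 (0.708) and the tubulin Tubb5 (0.718), with Asb18 lowest (−0.720). Tfam ran most like Smim7 (0.754), Mat2b (0.751) and Samm50 (0.744), with Rgs3 lowest (−0.758). None of the 8 genes was among the 3 most alike of another.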

How the data were processed

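Poly(A) RNA of whole EDL muscle was isolated with Dynabeads from 40 mice and directional single-end libraries were sequenced. Per the labels, the authors used Cutadapt 1.9.1 and kallisto 0.43.1 with GRCm38 transcripts, and a read that fitted several transcripts was divided among them. The deposited estimated counts are whole numbers, and the TPM values are those of the authors. Groups came from the labels, and 0 value columns were left without a sample.

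Genes with at least 1 CPM in at least 5 libraries were kept (13543 of 22844). Counts were scaled by TMM and tested with the robust quasi-likelihood F-test of edgeR 4.0.16 (R 4.3.3, limma 3.58.1) in 1 fit of 8 group means, with Benjamini-Hochberg adjustment over all genes and a threshold of 0.05. Standard errors were derived from F, and 95% intervals from the standard errors by the normal distribution. There were 13 planned comparisons (10 pairwise, 3 interactions) and 2 added ones. Alternatives were upper-quartile and RLE scaling, DESeq2 1.42.0, no filter, a fit to the groups compared, insert size as a term (1 library without a value was dropped), a replicate block and leaving out each library in turn. The count threshold, depth and 5 mice per group limit precision.

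The 8 genes, the lists and the markers were chosen with earlier results of these data known. Named were the 8 genes, Tsc1, of each list the 4 genes with the smallest adjusted p in 9mTSCmKO against 9mCON and in 9mTSCmKO+RM against 9mTSCmKO, a fixed set of known regulators and targets, and for each member the 3 most and 1 least alike genes. All measured genes that this rule names are reported except 1, which is not reported here.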

Additional observations from a re-analysis of the deposited data

Results flagged for a closer look

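In 8 of 64 combinations of gene and group, 1 library lay farther from the other 4 than Dixon's 95% critical value of 0.710 for 5 values allows, where chance gives about 1 in 20. Ppargc1a was highest in replicate 3 of 3mCON (199.4 CPM, next 86.0) and replicate 3 of 3mTSCmKO+RM (144 CPM, next 44.9), and lowest in replicate 1 of 9mCON+RM (47.1 CPM, next 69.0). Esrrg was highest in replicate 3 of 3mCON (62.4 CPM, next 29.1) and replicate 4 of 3mTSCmKO (92.3 CPM, next 45.6), and lowest in replicate 1 of 9mTSCmKO+RM (27.9 CPM, next 42.5). Esrrb was highest in replicate 5 of 9mCON (8.88 CPM, next 4.91), and Nrf1 lowest in replicate 1 of 3mTSCmKO+RM (13.5 CPM, next 15.3). Replicate 3 of 3mCON stood out for both Ppargc1a and Esrrg. It and replicate 4 of 3mTSCmKO were each the highest of their group in summed slow and oxidative fiber, adipocyte and Schwann cell markers, and replicate 5 of 9mCON in slow and oxidative fiber (488 TPM, the others at most 268), tendon, endothelial, macrophage and fibroblast markers. Replicate 3 of 3mTSCmKO+RM, high for Ppargc1a, was instead the lowest of its group in slow and oxidative fiber markers (466 TPM, the others 729 to 1238). It was the highest there in tendon (433 TPM) and fibroblast (1118 TPM) markers. The part of these markers was not tested.

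A difference in effect between genotypes or ages was called for none of the 8 genes but for 8 named genes of the pathway lists, by the interaction terms of the edgeR fit with Benjamini-Hochberg adjustment. Of all regulators, targets and mitochondrial DNA genes tested, 3 of 41, 2 of 36 and 0 of 20 were called by age (4.94% of all genes), 1, 1 and 2 by rapamycin at 9 months (4.87%) and 2, 1 and 1 at 3 months (3.45%). Some of the genes were named for a small adjusted p in 9mTSCmKO comparisons that enter these terms. The genotype effect was larger at 9 than at 3 months by 1.01 for Ldhb (adjusted p = 0.0338) and by 0.59 for Prkaa1 (0.0446), and for Mapk14 the effect at 9 months minus that at 3 months was −0.61 (0.0278), from −0.73 and −0.12. The rapamycin effect in TSCmKO minus that in CON at 9 months was −1.89 for Bdh1 (0.00570), 0.53 for Mgme1 (0.0446) and 0.59 for Top1mt (0.0174). At 3 months it was 0.78 for Vegfa (0.00639), 0.54 for Top1mt (0.0373) and −0.96 for Prkag3 (0.0138).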

How the results depend on the processing

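No called log2 fold change of the 8 genes reversed under any alternative run. Of their values under alternatives, 2525 kept their side of the threshold, 46 lost a call and 21 gained one. Fitted to the groups compared alone, the number of the 8 genes called was 1 instead of 2 in 3mTSCmKO against 3mCON, 1 instead of 2 in 9mTSCmKO+RM against 9mTSCmKO, 0 instead of 1 in 9mCON+RM against 9mCON, 1 instead of 0 in 3mCON+RM against 3mCON, 2 instead of 1 in 3mTSCmKO+RM against 3mCON, 5 instead of 4 in 3mTSCmKO+RM against 3mTSCmKO and 3 instead of 4 in 9mTSCmKO+RM against 9mCON. In 9mTSCmKO+RM against 9mTSCmKO it was also 1 with no filter on low counts and with insert size as a term. Insert size as a term gave 2 instead of 4 in 9mTSCmKO+RM against 9mCON, and upper-quartile scaling gave 0 instead of 1 in 9mCON+RM against 9mCON. DESeq2, upper-quartile scaling and the fit to the groups compared each gave 3 instead of 2 in 9mTSCmKO against 9mCON. The cause was not tested.

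Leaving out 1 library, the number called ranged from 2 to 3 in 9mTSCmKO against 9mCON, 1 to 2 in 3mTSCmKO against 3mCON, 1 to 3 in 9mTSCmKO+RM against 9mTSCmKO, 2 to 5 in 3mTSCmKO+RM against 3mTSCmKO, 0 to 1 in 9mCON+RM against 9mCON and in 9mTSCmKO against 3mTSCmKO, 2 to 4 in 9mTSCmKO+RM against 9mCON, 1 to 2 in 3mTSCmKO+RM against 3mCON, 3 to 4 for the mean genotype effect and 6 to 6 for the mean rapamycin effect, and was 0 throughout in 3mCON+RM against 3mCON, in 9mCON against 3mCON and in the 3 interactions. Of the values for the numbers called in each list under alternatives, 41 of the targets moved by over 1.5 times and 283 did not, against 50 and 274 for mitochondrial DNA upkeep and 47 and 277 for the regulators.

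No pairing of the mice by replicate number was seen, though a check by correlation cannot exclude one. Deviations from the group means correlated at −0.363 to 0.412 (median −0.004) between same-numbered libraries and at −0.463 to 0.546 between others. With a replicate block 1 of the 8 genes was called instead of 2 in 9mTSCmKO+RM against 9mTSCmKO, with Esrrb at an adjusted p of 0.0575, and 3 instead of 4 in 3mTSCmKO+RM against 3mTSCmKO, with Esrra at 0.0574.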
